A study of Mus musculus with 18 samples.

Results

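Neurexins, neuroligins and the organizers that bind them were followed as mRNA in the mouse brain at postnatal day 25. The 9 genes were Nrxn2, Nrxn3, Nlgn1, Nlgn2, Nlgn3, Cbln2, Cbln4, Lrrtm1 and Lrrtm2, taken as a list of symbols from the 53468 genes of the deposited count table. All 9 passed the filter on low counts in every comparison. A further 69 genes of partner proteins served as a second list.

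The study put into mice a single base change in a conserved regulatory element (CRE) of Fmr1, the gene lost in fragile X syndrome, by CRISPR/Cas9 editing of zygotes on a C57BL/6 background. Poly(A) RNA of dissected forebrain, midbrain and hindbrain came from 3 knock-in mice, called Fmr1CRE, and from 3 wild-type mice of 1 litter, none of them treated, which gave 18 libraries. Several lines were made, and the line used here is not named in the sources used here. The libraries were sequenced in 2 pools whose members are not named, so pool and group cannot be told apart.

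Neurexins are presynaptic adhesion proteins. Each neurexin gene gives a long (alpha) and a short (beta) protein from separate start sites, and alternative exons change which partner is bound. Neuroligins are postsynaptic receptors of neurexins: Nlgn1 is known mostly from excitatory synapses, Nlgn2 from inhibitory synapses and Nlgn3 from both. The cerebellins Cbln2 and Cbln4 are secreted and lie between neurexins and postsynaptic receptors. Lrrtm1 and Lrrtm2 are leucine-rich repeat proteins of excitatory synapses that bind neurexins.

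The alternative exon at splice site 4 is shown because it sorts the partners: cerebellins bind neurexins that carry it, and Lrrtm proteins favour neurexins that lack it. It is a coding exon of 90 bases, or 30 residues. In Nrxn3 it lies at chr12:90199147-90199236 on the plus strand (GRCm38, GENCODE M21), and the whole exon is printed in capitals.
Nrxn3 exon: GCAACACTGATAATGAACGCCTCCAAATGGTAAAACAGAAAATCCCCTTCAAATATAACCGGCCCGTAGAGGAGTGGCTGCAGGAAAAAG

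The insert at site B of Nlgn1 is shown because it lowers binding to long neurexins. It holds 27 bases at chr3:25439865-25439891 on the minus strand (GRCm38). It is printed in capitals, with 30 coding bases of the transcript on each side. In the 4 complete coding transcripts of Nlgn1 it is either present together with a 60-base exon at site A or absent together with it, so the sites were not separable.
Nlgn1 insert: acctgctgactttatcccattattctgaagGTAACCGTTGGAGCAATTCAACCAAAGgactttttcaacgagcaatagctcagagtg

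Library totals in the count table ran from 22455512 to 28061185. Fmr1 itself lay between 51.1 and 83.4 CPM, the count scaled to the normalized size of its library, in the 18 libraries, and its genotypes overlapped in all 3 regions. The midbrain libraries shared markers with both other regions: the 10 forebrain markers had a mean log2 CPM of 5.17 to 5.69 (forebrain), 4.56 to 5.14 (midbrain) and -0.51 to 0.81 (hindbrain). The 8 cerebellar granule neuron markers lay at 1.39 to 2.75 in forebrain, 4.38 to 5.45 in midbrain and 5.22 to 6.23 in hindbrain. The forebrain libraries of replicate 3 stood apart. Of 49 genes that differed by at least 2 on the log2 scale between the Fmr1CRE and wild-type mice of number 3 in both midbrain and hindbrain, 17 differed as much in the opposite direction in forebrain and 8 in the same. Over the 6 pairs of other mice, 39 of 247 such genes were opposite and 74 the same. Whether the forebrain libraries of number 3 were exchanged, or the others of those mice, or none, cannot be told apart. Values without libraries of number 3 are given beside calls they change and for the genotype differences they move most.

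**Figure D1:**
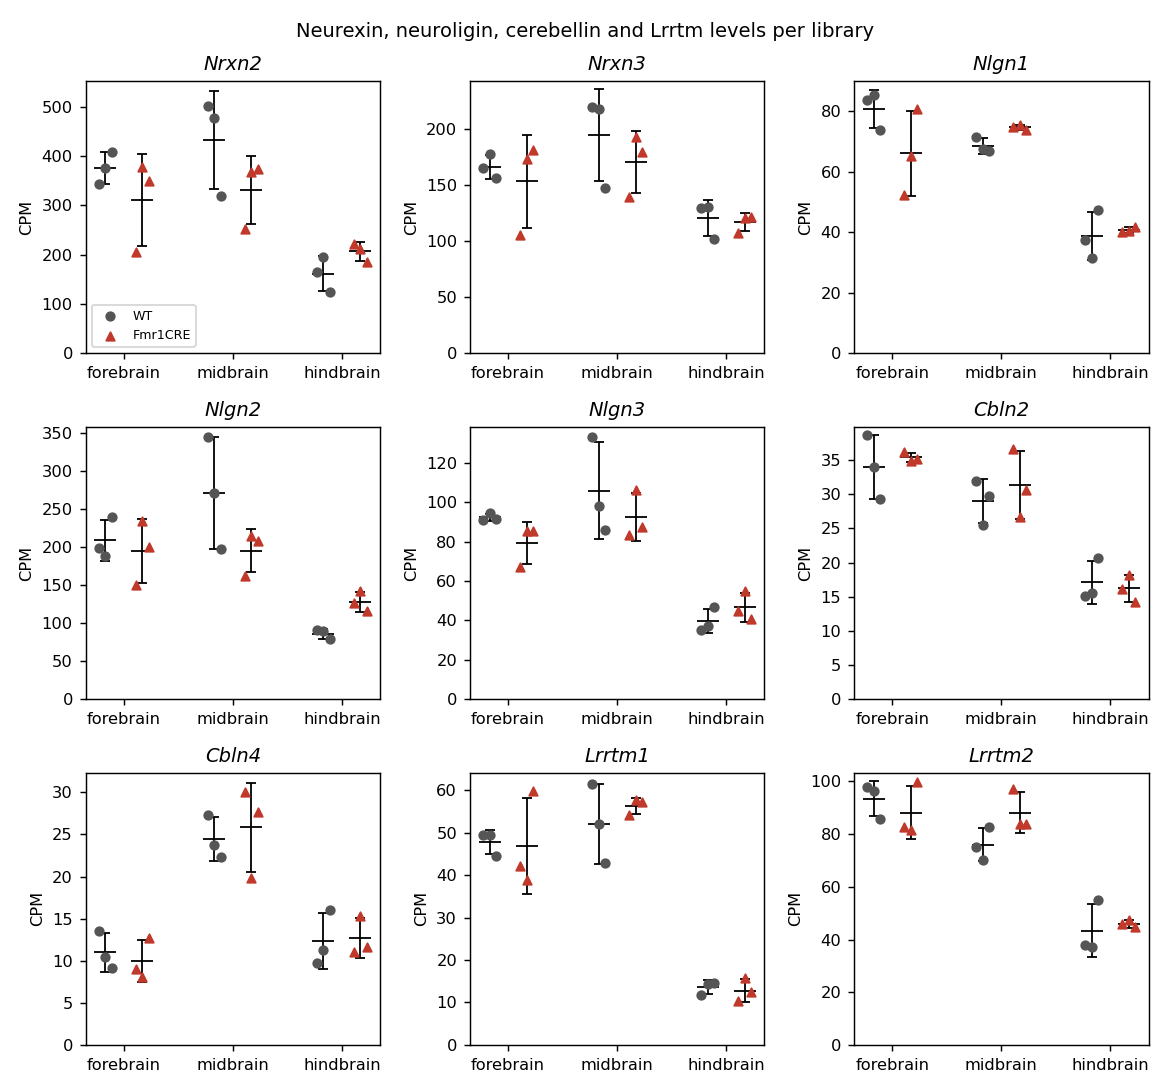
Levels of the 9 genes in CPM (vertical axis, from 0) in forebrain, midbrain and hindbrain. Grey circles are wild-type and red triangles Fmr1CRE libraries, 3 in each group, and black lines give the mean ± SD. Lrrtm1 lay between 38.7 and 61.6 CPM in forebrain and midbrain and at or below 15.7 CPM in hindbrain, and the Cbln4 libraries of midbrain lay above all of its other libraries.

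Levels of different genes were compared per length, as CPM divided by the effective transcript length in kilobases. That length weights transcripts by abundance normalized for length and depth (TPM), so short transcripts with few reads lower it and raise the level. In Nlgn2, the retained-intron transcript Nlgn2-204 had a median of 15.7 TPM on 117 estimated reads. The complete coding transcripts Nlgn2-201 and Nlgn2-202 had 4.58 and 5.47 TPM on 1879 and 2569 reads. In Nrxn2, complete coding transcripts had a median of 19.1 TPM over the 18 transcript sets, against 51.2 TPM for all its transcripts. In Nrxn3 these medians were 8.46 and 10.8 TPM, and the only transcript of Lrrtm2 had 8.34 TPM. The gaps of Nrxn2 and Nlgn2 to the other genes therefore depend on which transcripts are counted. An order by complete coding transcripts was not made. In forebrain, Nrxn2 had the highest level, 124 ± 26 CPM per kb (SD, n = 6), and Nlgn2 came next with 73.3 ± 11.8. These ranges overlapped, since Nrxn2 went down to 73.9 and Nlgn2 up to 87.0. Nrxn3 followed at 27 ± 4.8 CPM per kb, with every library below the lowest of Nlgn2 by this measure. Lrrtm2 had 22.4 CPM per kb, Nlgn1 19.5, Cbln2 18.0, Lrrtm1 16 and Nlgn3 13.7, and each neighbour in this order overlapped the next. Cbln4 was lowest at 3.60 CPM per kb, and its highest library (4.66) lay under the lowest of Nlgn3 (10.7). In hindbrain, Nrxn2 (66.5 CPM per kb), Nlgn2 (39.0) and Nrxn3 (20.1) kept the first places by the same measure. Lrrtm1 came down to 4.46 CPM per kb there, beside Cbln4 at 4.30, with overlapping ranges.

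The first comparison asked how the mRNAs were spread over the regions, with both genotypes in 1 fit of 18 libraries (edgeR quasi-likelihood test, Benjamini-Hochberg adjusted p under 0.05). Of the 9 genes, 8 were higher in forebrain than in hindbrain, 0 were lower and 1, Cbln4, was not called. Over all 20363 genes tested, 26.4% were called higher in forebrain and 25.3% lower. All 9 were higher in midbrain than in hindbrain, where 25.1% of all genes were called higher in midbrain and 24% lower. Between forebrain and midbrain only Cbln4 was called, lower in forebrain, against 9.38% of genes called higher and 9.96% called lower. The median log2 difference of the 9 genes was 0.94 for forebrain over hindbrain, -0.19 for forebrain over midbrain and 1.01 for midbrain over hindbrain, beside -0.01, 0.02 and -0.03 over all genes. The regions were not alike in cells. The 8 oligodendrocyte markers summed to 13591 to 17321 CPM (forebrain), 17971 to 21228 CPM (midbrain) and 30999 to 43314 CPM (hindbrain). The 8 neuron markers had a mean log2 CPM of 8.90 to 9.36 in forebrain, 9.13 to 9.44 in midbrain and 8.62 to 8.80 in hindbrain, and 4 of them were called higher and 3 lower in forebrain than in hindbrain. The part of these shifts in the results was not tested, and in bulk tissue fewer cells of a type and less RNA per cell cannot be told apart.

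**Figure D2:**
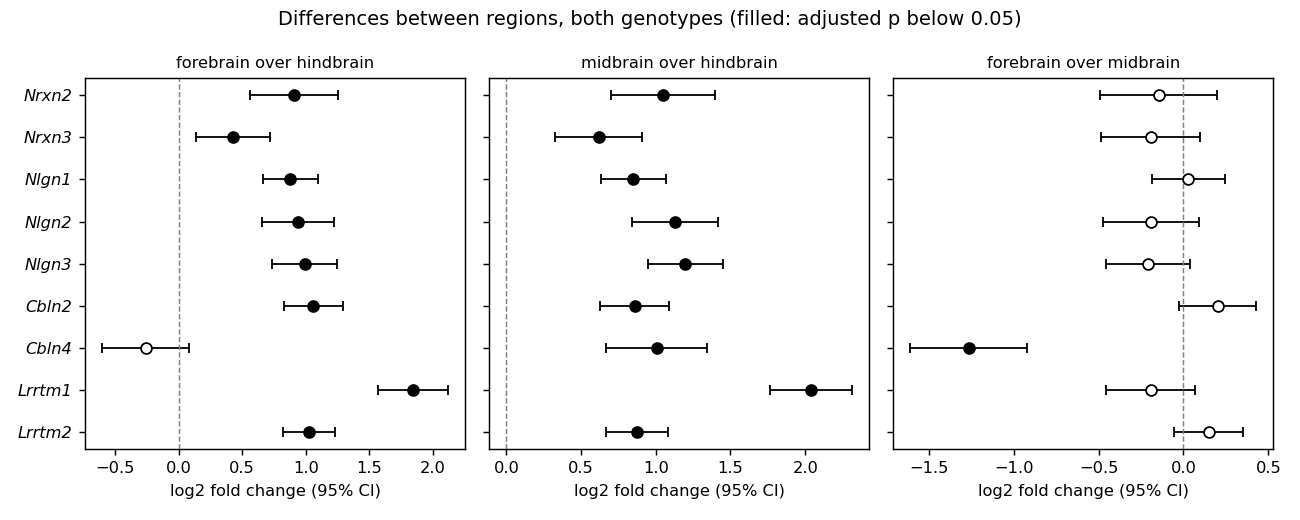
Log2 fold change (horizontal axis) of the 9 genes between regions, with 95% confidence intervals from the fit of 18 libraries. Filled points have an adjusted p under 0.05. In the panel of forebrain over midbrain, Cbln4 is the only filled point, at -1.26, and the other intervals cross 0.

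Lrrtm1 (chr6:77242689-77257791) differed most. Its lowest, median and highest levels were 38.7, 47.0 and 59.8 CPM in forebrain, 42.8, 55.7 and 61.6 CPM in midbrain, and 10.3, 13.4 and 15.7 CPM in hindbrain. No forebrain or midbrain library overlapped a hindbrain library. The level was 3.59-fold higher in forebrain than in hindbrain (log2 1.84, SE 0.13, adjusted p = 7.7e-09) and 4.11-fold higher in midbrain (log2 2.04, SE 0.13, adjusted p = 5.8e-09). Lrrtm1 lies on the opposite strand within Ctnna2, and whether the counting used strand is not given in the sources used here.

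Lrrtm2 (chr18:35209003-35215024), which lies within Ctnna1 on the opposite strand, showed a smaller step. It had 81.8, 91.1 and 99.8 CPM in forebrain, 70.2, 83.1 and 97.0 CPM in midbrain, and 37.1, 45.2 and 54.9 CPM in hindbrain. Its level was 2.03-fold higher in forebrain than in hindbrain (adjusted p = 2.7e-07) and 1.83-fold higher in midbrain (adjusted p = 2.6e-06), without overlap. The 95% intervals of the forebrain over hindbrain fold were 2.97 to 4.34 for Lrrtm1 and 1.76 to 2.35 for Lrrtm2, and did not meet.

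The cerebellins differed in their pattern. Cbln2 (chr18:86711110-86718283) had 29.3, 35.1 and 38.7 CPM in forebrain, 25.6, 30.2 and 36.6 CPM in midbrain, and 14.2, 15.8 and 20.6 CPM in hindbrain. It was 2.08-fold higher in forebrain than in hindbrain (adjusted p = 6.2e-07). Cbln4 (chr2:172036233-172043466) had 8.07, 9.74 and 13.6 CPM in forebrain, 19.8, 25.6 and 30.01 CPM in midbrain, and 9.68, 11.5 and 16.1 CPM in hindbrain. Every midbrain library of Cbln4 lay above every forebrain and hindbrain library. Its level was 2.40-fold lower in forebrain than in midbrain (log2 -1.26, SE 0.16, adjusted p = 7.0e-05), with 0 of 6 mice higher in forebrain, and 2.01-fold higher in midbrain than in hindbrain (adjusted p = 8.9e-05). Without the forebrain libraries of number 3 the first difference was -1.32 on the log2 scale (adjusted p = 0.00018). Forebrain and hindbrain Cbln4 were not told apart (log2 -0.26, 95% interval -0.60 to 0.08, adjusted p = 0.195). Scaling by total counts alone called that difference (log2 -0.39, adjusted p = 0.043).

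All 3 neuroligins were higher in forebrain and in midbrain than in hindbrain. Nlgn1 (chr3:25426215-26332460) had 52.5, 77.2 and 85.4 CPM in forebrain, 66.8, 72.8 and 75.5 CPM in midbrain, and 31.5, 40.3 and 47.5 CPM in hindbrain. Nlgn2 (chr11:69823122-69837784) had 150, 199 and 239 CPM in forebrain, 162, 212 and 345 CPM in midbrain, and 78.7, 103 and 143 CPM in hindbrain. Nlgn3 (chrX:101299168-101325963) had 67.2, 88.4 and 94.6 CPM in forebrain, 83.6, 92.8 and 133 CPM in midbrain, and 35.4, 42.7 and 54.9 CPM in hindbrain. For each of the 3, all forebrain and midbrain libraries lay above all hindbrain libraries. Forebrain over hindbrain was 1.84-fold for Nlgn1 (adjusted p = 2.9e-06), 1.92-fold for Nlgn2 (adjusted p = 2.4e-05) and 1.99-fold for Nlgn3 (adjusted p = 3.7e-06). Midbrain over hindbrain was 1.80-fold for Nlgn1, 2.19-fold for Nlgn2 and 2.29-fold for Nlgn3. Between forebrain and midbrain the intervals of the log2 difference were -0.19 to 0.25 for Nlgn1, -0.47 to 0.09 for Nlgn2 and -0.46 to 0.04 for Nlgn3.

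The neurexins were higher in forebrain and midbrain too, with the smallest fold of the 8 called genes in Nrxn3. Nrxn2 (chr19:6418731-6544169) had 204, 363 and 409 CPM in forebrain, 252, 370 and 502 CPM in midbrain, and 124, 190 and 222 CPM in hindbrain. Nrxn3 (chr12:88722876-90334935) had 105, 169 and 181 CPM in forebrain, 139, 186 and 220 CPM in midbrain, and 102, 122 and 131 CPM in hindbrain. Nrxn2 overlaps Slc22a12 on the opposite strand. In both genes the lowest forebrain library was that of Fmr1CRE replicate 1, which lay within the hindbrain range. Nrxn2 was 1.87-fold higher in forebrain than in hindbrain (95% interval 1.47 to 2.38, adjusted p = 0.00022) and higher in 5 of 6 mice. Nrxn3 was 1.34-fold higher (1.10 to 1.64, adjusted p = 0.016), also in 5 of 6 mice. This call of Nrxn3 was lost without the 2 forebrain libraries of number 3 (log2 0.38, adjusted p = 0.0539) and with total counts alone (log2 0.28, adjusted p = 0.0664). Midbrain over hindbrain was 2.07-fold for Nrxn2 (adjusted p = 7.4e-05) and 1.54-fold for Nrxn3 (adjusted p = 0.0015), with no overlap in either.

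Scaling touched these calls. Total counts alone moved the median of all genes by -0.14 on the log2 scale for forebrain over hindbrain, by -0.06 for forebrain over midbrain and by -0.08 for midbrain over hindbrain. The share of calls that were higher in forebrain than in hindbrain went from 51.1% to 38.9%, and that of forebrain over midbrain from 48.5% to 32.2%. Of the 9 genes, 7 rather than 8 were then called higher in forebrain than in hindbrain.

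Of the 69 partner genes, 52 were higher in forebrain than in hindbrain, 10 were lower and 7 were not called, with a median log2 difference of 0.88. Over all genes, 26.4% were called higher and 25.3% lower there. Between forebrain and midbrain 6 were higher and 15 lower, beside 9.38% and 9.96% of all genes. Between midbrain and hindbrain 56 were higher and 6 lower, beside 25.1% and 24%. Of the 13 secreted ligands, 4 were higher in forebrain than in hindbrain and 7 lower. Cbln3 and Cbln1, cerebellins of cerebellar granule neurons, were lower in forebrain, with log2 differences to hindbrain of -6.75 and -3.73. C1ql4, a C1q-like secreted protein, had means of 0.11 CPM (forebrain), 2.94 CPM (midbrain) and 1.16 CPM (hindbrain). Each forebrain library held 0 to 8 of its counts, so its fold depends on the prior count and is not given. Mean Cbln1 was 13.2 CPM in forebrain, 82.1 in midbrain and 175 in hindbrain, an order opposite to that of Cbln2 (34.7, 30.2 and 16.6 CPM). The largest rises from hindbrain to forebrain were those of Nptx2, a secreted pentraxin (log2 3.02), of Nptxr, the neuronal pentraxin receptor (2.72) and of Dlg4, the postsynaptic scaffold PSD-95 (2.16). Of 15 postsynaptic partners of LAR-type phosphatases 14 were higher in forebrain than in hindbrain and 1 was lower, and of 10 latrophilins, FLRTs and teneurins 9 were higher and 0 lower. Of 11 other surface proteins 9 were higher and 0 lower, and of 6 receptors of secreted ligands 5 were higher and 1 lower. Among 3 LAR-type phosphatases 2 were higher, among 4 netrin-G genes 4, and among 7 intracellular partners 5, with 0, 0 and 1 lower. Tenm2, a teneurin, had the largest difference between midbrain and hindbrain (log2 2.88), with Nptxr (2.76) and Nptx2 (2.65) next, while Cbln3 (-1.25), Cbln1 (-1.10) and Nxph2, a neurexophilin (-0.59), were lower in midbrain. Between forebrain and midbrain Cbln3 (-5.49) and Cbln1 (-2.63) were lower in forebrain, and Dlg4 (0.63), Nxph2 (0.55) and Adgrb1, an adhesion G protein-coupled receptor (0.42), were higher.

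The second comparison asked whether the knock-in changed these genes within a region, in 6 libraries at a time. None of the 9 genes was called in forebrain, midbrain or hindbrain by edgeR's quasi-likelihood test, and none of the tested partner genes was, 68 in forebrain and 69 in each other region. Over all genes tested, 0% were called in forebrain and 0% in hindbrain, and 0.00543% (1 gene) in midbrain. The share with an unadjusted p under 0.05 was 5.43% for forebrain, 6.17% for midbrain and 5.13% for hindbrain. Of the 9 genes 0 reached it in forebrain, and 1, Nlgn2, did so in each other region. The median log2 difference of the 9 genes was -0.09 (forebrain), 0.08 (midbrain) and 0.07 (hindbrain). DESeq2 called 1 of the 9, Nlgn2 in hindbrain, where it called 59 of the 19112 genes that passed the filter. It called 31 of 18467 in forebrain and 62 of 18400 in midbrain, with 0 of the 9 in either.

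**Figure D3:**
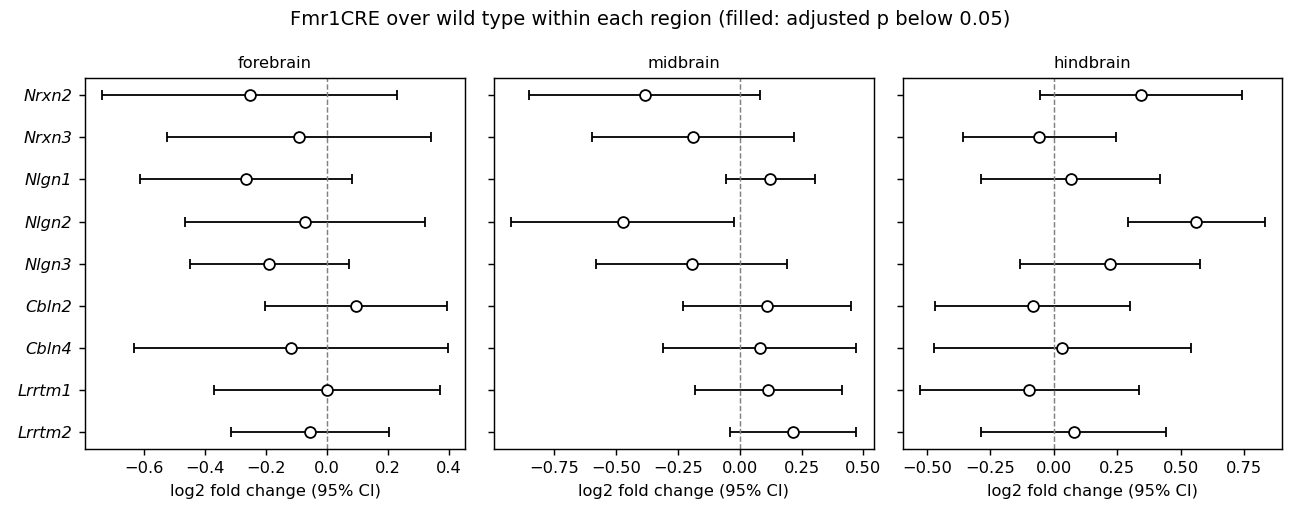
Log2 fold change of Fmr1CRE over wild type (horizontal axis, with its own scale in each panel) for the 9 genes in forebrain, midbrain and hindbrain, with 95% confidence intervals from 3 libraries a genotype. All points are open, since no adjusted p was under 0.05. Nlgn2 lies at -0.07 in forebrain, -0.47 in midbrain and 0.56 in hindbrain.

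Nlgn2, the neuroligin of inhibitory synapses, gave the largest genotype difference. In hindbrain it had 126, 143 and 116 CPM in the Fmr1CRE libraries and 90.5, 89.6 and 78.7 CPM in the wild-type libraries. Every Fmr1CRE library lay above every wild-type library. The level was 1.48-fold higher in Fmr1CRE (log2 0.56, SE 0.12, 95% interval 0.29 to 0.83), with an unadjusted p of 0.0014 and an adjusted p of 0.749 by edgeR. DESeq2 gave the same gene an adjusted p of 0.0082. The two-sided exact permutation test gave p = 0.1, the smallest that 3 against 3 allow.

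In midbrain the order was the opposite. Nlgn2 had 162, 214 and 209 CPM in Fmr1CRE and 345, 271 and 198 CPM in wild type, and the groups overlapped. The level fell by 0.47 on the log2 scale (SE 0.19, 95% interval -0.92 to -0.02, unadjusted p = 0.0421, adjusted p = 0.806 with edgeR). Without wild-type replicate 1, the highest library, the difference was -0.28. In forebrain it had 150, 234 and 200 CPM in Fmr1CRE and 198, 189 and 239 CPM in wild type (log2 -0.07, 95% interval -0.47 to 0.32). The genotype difference in hindbrain exceeded that in midbrain by 1.05 on the log2 scale. The edgeR interaction test of genotype and region gave Nlgn2 an unadjusted p of 0.0042 and an adjusted p of 0.660, with 7.54% of all genes under 0.05 unadjusted and 0% called. Regions of the same mouse entered this test as if they were independent.

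Nlgn2 moved with the base composition of the libraries. G and C made up 59.96% of its transcripts, and 61.4% of those of Nrxn2, which put both in the highest decile of all genes. A score per library was taken as the mean deviation from the group mean of the highest GC decile minus that of the lowest. Over 18 libraries, which also share their sequencing pools, the deviations of Nlgn2 followed this score with r = 0.84 and those of Nrxn2 with r = 0.81, against 0.01 for Nlgn1 (41.2% GC) and -0.28 for Lrrtm2 (39.7% GC). The order was not that of GC alone, since r was 0.65 for Nrxn3 (49.6% GC) and 0.61 for Nlgn3 (49.7%) but 0.48 for Lrrtm1 (56.03%). At nearly the same GC as Nrxn3, r was -0.07 for Cbln2 (49.0%) and 0.12 for Cbln4 (49.0%). Nlgn2 and Nrxn2 lie in the decile that enters the score. How many other genes of that decile reach such an r was not computed. Between genotypes the median log2 difference of the highest GC decile was 0.0063 for hindbrain, -0.14 for midbrain and 0.00075 for forebrain. That of the lowest decile was -0.047, 0.070 and 0.044, beside 0.56, -0.47 and -0.07 for Nlgn2. Per library, the median log2 CPM of the highest decile minus that of the lowest was also taken. In hindbrain it was 2.23, 2.54 and 1.84 (Fmr1CRE) and 1.99, 2.21 and 1.88 (wild type). Midbrain had 2.47, 2.68 and 2.69 against 2.97, 2.83 and 2.61, and forebrain 2.20, 2.57 and 2.65 against 2.52, 2.51 and 2.84. The genotypes overlapped in each region. The part of base composition in the differences of Nlgn2 was not tested further.

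Of the other 8 genes, 3 had groups without overlap in 1 region each. Among all genes the share without overlap was 10.3% for forebrain, 11.3% for midbrain and 10.9% for hindbrain. Nlgn3 in forebrain had 67.2, 85.4 and 85.7 CPM in Fmr1CRE and 91.1, 94.6 and 91.5 CPM in wild type (log2 -0.19, 95% interval -0.45 to 0.07). Nlgn1 in midbrain had 75.0, 75.5 and 74.0 CPM in Fmr1CRE and 71.7, 67.5 and 66.8 CPM in wild type (log2 0.12, 95% interval -0.06 to 0.30). Lrrtm2 in midbrain had 97.0, 83.7 and 83.8 CPM in Fmr1CRE and 75.0, 70.2 and 82.6 CPM in wild type (log2 0.22, 95% interval -0.04 to 0.47). All 3 intervals held 0.

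Nrxn2 spread widely between libraries. In forebrain it had 204, 377 and 349 CPM in Fmr1CRE and 344, 376 and 409 CPM in wild type (log2 -0.25, 95% interval -0.73 to 0.23). In midbrain it had 252, 367 and 373 CPM in Fmr1CRE and 502, 476 and 319 CPM in wild type (log2 -0.38, -0.85 to 0.08). In hindbrain it had 222, 212 and 186 CPM in Fmr1CRE and 165, 195 and 124 CPM in wild type (log2 0.35, -0.05 to 0.74). The groups overlapped in each region, and the signs were those of Nlgn2. With each library left out, the difference of Nrxn2 ranged from -0.42 to -0.04 (forebrain), -0.56 to -0.23 (midbrain) and 0.18 to 0.50 (hindbrain). For Nrxn3 the log2 differences were -0.09, -0.19 and -0.06 in forebrain, midbrain and hindbrain. For Cbln2, Cbln4 and Lrrtm1 they lay between -0.12 and 0.12 in the 3 regions, and the widest interval, that of Cbln4 in forebrain, went from -0.63 to 0.40. Nlgn1 had -0.27 in forebrain (95% interval -0.61 to 0.08) and 0.07 in hindbrain, Nlgn3 had -0.19 in midbrain and 0.22 in hindbrain, and Lrrtm2 had -0.05 in forebrain and 0.08 in hindbrain. With each library left out, Nlgn3 ranged from -0.32 to -0.0073 (midbrain) and 0.10 to 0.35 (hindbrain). Without both forebrain libraries of number 3, Nlgn1 was at -0.47 (adjusted p = 0.302, edgeR) and Cbln4 at -0.43 (adjusted p = 0.435, edgeR) in forebrain, where Nrxn3 was at -0.25, Lrrtm1 at -0.24 and Lrrtm2 at -0.19. Without both midbrain libraries of number 3, Nrxn2 was at -0.65 (unadjusted p = 0.0123, adjusted p = 0.321, edgeR), Nlgn2 at -0.70 (adjusted p = 0.304, edgeR) and Nrxn3 at -0.39 (adjusted p = 0.434, edgeR). Lrrtm2 was then at 0.33 (adjusted p = 0.392, edgeR) there. Without both hindbrain libraries of number 3, Nlgn3 was at 0.44 (unadjusted p = 0.0228, adjusted p = 0.354, edgeR) and Lrrtm2 at 0.29 (unadjusted p = 0.044, adjusted p = 0.394, edgeR). Cbln4 was then at 0.32, Nlgn1 at 0.21 and Nrxn3 at -0.21 in hindbrain. None of these was called.

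Some of the 9 genes varied together between libraries of 1 group. The pairs named here were chosen after the values were seen. Across the 18 libraries, the deviations from the group mean of Nrxn2 and Nrxn3 correlated at r = 0.89, those of Nrxn2 and Nlgn2 at 0.87 and those of Nrxn3 and Nlgn2 at 0.78. Cbln2 and Cbln4 correlated at 0.78, Cbln2 and Lrrtm2 at 0.74, Cbln4 and Lrrtm2 at 0.73, and Nlgn1 and Lrrtm2 at 0.75. Nrxn2, Nrxn3 and Nlgn2 had negative values with Cbln2 and Lrrtm2, from -0.49 (Nrxn2 and Lrrtm2) to -0.24 (Nlgn2 and Cbln2). With Cbln4 they gave only -0.21, -0.049 and -0.092, and with Nlgn1 0.055, 0.31 and 0.11. Pairs of other genes were not computed as a background for these values. Nlgn3 and Lrrtm1 had positive values with genes of both sets of pairs. These were 0.67 for Nlgn3 and Nlgn2, 0.53 for Nlgn3 and Nlgn1, 0.70 for Lrrtm1 and Cbln4, and 0.44 for Lrrtm1 and Nrxn3. In levels, which also hold the region differences, Cbln2 and Lrrtm2 correlated at 0.96, and Nrxn2 and Nlgn2 at 0.96.

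Among 11181 genes, the pattern most like that of a member over the 18 libraries was that of Slc25a22 for Nrxn2 (r = 0.97), Fry for Nrxn3 (0.97), Socs5 for Nlgn1 (0.99) and Pacsin1 for Nlgn2 (0.98). It was Khdrbs3 for Cbln2 (0.97), Zcchc18 for Cbln4 (0.97), St6galnac5 for Lrrtm1 (0.99) and A830018L16Rik for Lrrtm2 (0.98). Within the partner list, Lrfn3 was nearest to both Nrxn2 (0.97) and Nlgn2 (0.96), and Flrt2 to both Nlgn1 (0.96) and Lrrtm2 (0.97). Lrrc4b was nearest to Nrxn3 (0.92), Tenm3 to Nlgn3 (0.98), Lrfn5 to Cbln2 (0.95), Slitrk3 to Lrrtm1 (0.98) and C1ql2 to Cbln4 (0.83).

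The third question was which neurexin forms were present. It rests on 18 deposited sets of transcript abundances normalized for length and depth (TPM), of which 2 are named as their sample record and 16 name another mouse or region, so the sets were assigned to no group and are described by their range and median. Transcripts with a complete coding sequence of at least 3000 bases were counted as long. Of the TPM of complete coding transcripts, 6 for Nrxn2 and 5 for Nrxn3, long ones made up 25.8% to 46.5% in Nrxn2 (median 38.4%) and 62.5% to 89.1% in Nrxn3 (median 74.3%), so the ranges did not overlap. The most abundant complete Nrxn2 transcript was the short Nrxn2-202, with a median of 11.9 TPM, and that of Nrxn3 was the long Nrxn3-205, with 6.07 TPM. By estimated reads the medians were 50.4% for Nrxn2 and 86.7% for Nrxn3, and with all transcripts of each gene in the denominator 14.8% (10.4% to 17.7%) and 57.5% (49.8% to 75.3%). In both cases Nrxn3 kept the higher long share.

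The 90-base exon at splice site 4 was carried by 82.2% to 97.2% of the TPM of complete Nrxn2 transcripts (median 86.3%). In long Nrxn2 transcripts the median was 65.1% (51.9% to 90.9%), and in short ones 99.7% (99.1% to 99.95%). The highest share in long transcripts lay under the lowest in short ones. Only 1 short complete Nrxn2 transcript lacks the exon, Nrxn2-203, with 1059 coding bases against 1980 in Nrxn2-202. They differ by more than the exon, so the short share and its gap to the long share depend on the annotated forms. In Nrxn3 the exon was in 98.7% to 100% of the TPM, but all 3 annotated long complete Nrxn3 transcripts carry it, so for the long form this share was set by the annotation. The short Nrxn3 forms with and without it, Nrxn3-202 and Nrxn3-203, also differ by more than the exon (1701 and 1290 coding bases). The Nlgn1 insert was carried by 27.7% to 44.2% of the TPM of complete Nlgn1 transcripts, with a median of 36.2%. Reads of 50 bases from 1 end rarely span both a start site and a distant exon, so these shares are estimates of the quantification and not counts of whole transcripts.

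**Figure D4:**
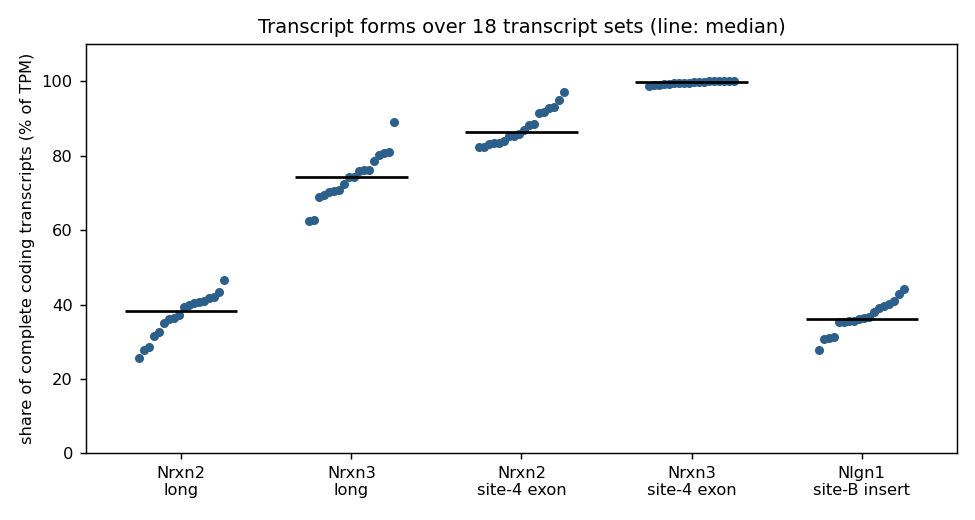
Share of the TPM of complete coding transcripts (vertical axis, %) for long Nrxn2 and Nrxn3 forms, the 90-base exon at splice site 4 in both, and the 27-base insert of Nlgn1. Each point is 1 of 18 transcript sets, ordered by value, and lines are medians. Every Nrxn3 long share, from 62.5%, lies above every Nrxn2 long share, up to 46.5%.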

How the data were processed

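Poly(A) mRNA of 3 brain regions from 3 Fmr1CRE and 3 wild-type mice was sequenced with single-end 50-base reads. The authors estimated reads per transcript with Salmon (0.14.0, mm10, by the submitters' processing notes) and deposited them summed per gene as whole counts without normalization. They also deposited expected counts and TPM per transcript for 18 sets. The copy of their variance-stabilized values was not used here. The strand setting is not given in the sources used here. The number of per-sample columns left out was 0.

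Symbols and positions came from GENCODE M21 (GRCm38), which named 53363 of 53468 genes. Counts were analysed with edgeR 4.0.16 in R 4.3.3 (TMM, default filter, quasi-likelihood test, Benjamini-Hochberg at 0.05). Regions were compared in 1 fit of 18 libraries and genotypes in the 6 libraries of a region. Log2 CPM had a prior count of 2. Effective length was the TPM-weighted mean over a gene's transcripts, as the median of the 18 sets. Alternatives were DESeq2 1.42.0, its size factors, total counts, other filters, blocks, left-out libraries and wild-type libraries only. The last, the exon shares and the GC comparison were added after the data were seen. The GC content was known for 20339 of the 20363 fitted genes.

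The members, lists and tests were chosen with earlier results of these data known. The genes named were the 9 members, the 3 called partner genes with the largest change in each direction, and for each member the gene most alike in all genes and in the partner list. Some of these items, and some sequence, are not reported here. Scripts were tested on simulated data. The regions of a mouse are paired by its label, and same-mouse deviations correlated across genes between -0.17 and 0.18 (median 0.04). Libraries of other mice and regions gave -0.35 to 0.26 (median -0.01), so the pairing rests on the labels alone. Replicates of a group were distinct libraries, with a chi-square of at least 12.2 per gene. With 3 mice a genotype, the spread between mice limited the precision.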

Additional observations from a re-analysis of the deposited data

How the results depend on the processing

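The calls of the 9 genes between regions kept their side of the threshold under every alternative and with each library left out, except those of Nrxn3 and Cbln4 given above. The mouse as a replicate block kept 8, 1 and 9 of the genes called for forebrain over hindbrain, forebrain over midbrain and midbrain over hindbrain, and the replicate number as a block left Nlgn2 in hindbrain at 0.56, with 0 of the 9 called in any region. Replicate numbers pair genotypes by number alone (r of deviations -0.12 to 0.07).

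Wild-type libraries alone called 1729 genes between forebrain and midbrain, against 3939. The count of genes called between genotypes rose with DESeq2 to 31 (forebrain), 62 (midbrain) and 59 (hindbrain, with 1 of the 9 genes), and to 52 for the interaction. In 1 fit of all 18 libraries it was 1, 0 and 1. With no filter it was 11 in midbrain, 11 in hindbrain and 7 for the interaction, and with at least 10 counts in every library it was 0 in midbrain. Without number 3 it was 3 in midbrain and 1 in hindbrain, and without only the 2 forebrain libraries of number 3 it was 4 for the interaction. With each library left out it ranged from 0 to 4 in midbrain, 0 to 5 in hindbrain and 0 to 3 for the interaction. Genes with an unadjusted p under 0.05 numbered 2545 (forebrain), 2168 (midbrain) and 2390 (hindbrain) without number 3, against 1002, 1135 and 981. The causes were not tested.

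Several uncalled genotype differences changed sign. Lrrtm1 in forebrain (0.000075) was -0.027 in the fit of 18 libraries, -0.0069 with no filter, -0.019 with the replicate block and -0.24 without number 3. Without number 3, Cbln2 in hindbrain was 0.15, Cbln4 in midbrain -0.022, Lrrtm1 in midbrain -0.0066 and Nlgn2 in forebrain 0.036. Nlgn1 between forebrain and midbrain was -0.032 with total counts and -0.027 without the forebrain libraries of number 3. With each library left out, the log2 difference ranged from -0.17 to 0.067 for Cbln2 in hindbrain, -0.025 to 0.21 for Cbln2 in midbrain, -0.31 to 0.061 for Cbln4 in forebrain, -0.12 to 0.26 for Cbln4 in hindbrain, -0.047 to 0.24 for Cbln4 in midbrain, -0.19 to 0.12 for Lrrtm1 in forebrain, -0.26 to 0.037 for Lrrtm1 in hindbrain, -0.0074 to 0.24 for Lrrtm1 in midbrain, -0.021 to 0.28 for Lrrtm2 in hindbrain, -0.063 to 0.23 for Nlgn1 in hindbrain, -0.058 to 0.099 for Nlgn1 between forebrain and midbrain, -0.23 to 0.067 for Nlgn2 in forebrain, -0.21 to 0.10 for Nrxn3 in forebrain and -0.17 to 0.0068 for Nrxn3 in hindbrain.

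The median long shares under the other measures were 50.4% and 14.8% for Nrxn2 and 86.7% and 57.5% for Nrxn3.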

Other observations

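Some values belong to the 18 transcript sets that were assigned to no mouse or region. The long share of the TPM of complete Nrxn3 transcripts was 62.5% and 62.8% in the 2 lowest sets and 69.0% in the next, and 80.9% and 89.1% in the 2 highest. The share of the Nlgn1 insert was 27.7% in the lowest set, 30.7% to 31.2% in the next 3 and 35.4% or more in the other 14.

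Partner genes were also looked at between genotypes without a call. Magi2, a scaffold that binds neuroligins, had a log2 difference of -0.44 in forebrain (unadjusted p = 0.0178, adjusted p = 0.806) and of 0.52 in hindbrain (unadjusted p = 0.0079, adjusted p = 0.875, both edgeR). These values were chosen after they were seen. Of the 69 partner genes, 53 had a positive log2 difference in hindbrain, and 19 of 68 in forebrain and 19 of 69 in midbrain did, with medians of 0.13, -0.10 and -0.13 beside medians near 0 over all genes. Genes measured in the same libraries can shift together, so these signs are not independent. An unadjusted p under 0.05 (edgeR) was reached by 1 partner gene in forebrain, 6 in midbrain and 5 in hindbrain. Over all genes the shares were 5.43%, 6.17% and 5.13%. The 8 neuron markers had median log2 differences of 0.075 in hindbrain, -0.08 in forebrain and -0.085 in midbrain, and the cerebellar granule neuron markers of 0.33 in hindbrain, -0.26 in midbrain and 0.11 in forebrain, where 6 were tested. Their part in these signs was not tested.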
